A study of Mus musculus with 26 samples.

Results

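Myc and 39 genes of ribosome biogenesis were followed through positive selection in thymocytes of 3 T cell receptor (TCR) transgenic lines. The 40 members were chosen by gene symbol, as Myc plus named factors of rRNA transcription, processing and ribosome assembly, with no threshold on measured values. Earlier results of these data were known when the members were chosen. Of the 46517 symbols in the deposited table, 39 members were listed under their own symbol and Utp4 under the older symbol Cirh1a. All 40 passed the filter for low values that left 16372 genes to test (a normalized count of at least 10 in at least 2 libraries).

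RNA was sequenced in bulk from sorted mouse thymocytes in 26 libraries. TG6 thymocytes (TG6tg, H2b/d, on C57/BL6 x B6.C-H2d/bByJ, with no Rag deletion in the labels) bear a TCR of low self-reactivity, F5 thymocytes (F5tg Rag1KO, C57/BL6) a TCR of intermediate self-reactivity, and OT-1 thymocytes (OT-1tg Rag2KO, C57/BL6) a TCR of high self-reactivity. Each line carries only 1 transgenic TCR, no group received a treatment, and no mice without a TCR transgene were among the libraries analysed here. TCR and Rag genotype cannot be told apart between the lines, nor can strain and H2 haplotype between TG6 and the others. Cells were sorted as CD4+CD8+CXCR4+CCR7- (early positive selection, here early), CD4+CD8+CXCR4-CCR7+ (late positive selection, here late) and CD4-CD8+CXCR4-CCR7+ (mature CD8SP, here mature). There were 3 libraries per group, except for TG6 late with 2.

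Myc is a transcription factor that pairs with Max and binds E-box DNA, and it is known to raise the transcription of genes for cell growth when lymphocytes receive an activating signal. Ribosome biogenesis begins in the nucleolus, where RNA polymerase I makes the precursor of the large rRNAs. Small nucleolar ribonucleoproteins (snoRNPs) modify this precursor, and assembly factors fold, cut and export the small and large subunits.

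Members were described in 8 roles, and 7 of the 40 (17.5%) contain annotated snoRNA genes within their bounds (Ncl, Nop56, Nop58, Dkc1, Wdr43, Tsr1 and Gnl3), compared with 204 of 12428 protein-coding genes tested (1.64%). The RefSeq promoter table (GRCm38.p6, windows of 300 bases from 250 before to 50 after a start) held 34 of the 40 members. The Myc-binding E-box CACGTG, which reads the same on both strands, was found in the windows of 9 of these 34 members (26.5%). It was found in 1186 of the 10391 tested genes in the table (11.4%) and in 2187 of all 27025 genes (8.09%). In 7 of the 34 members (20.6%) the hexamer began in the 50 bases after the start, as it did in 202 of the tested genes (1.94%). A match describes the letters in the window only, and no binding was measured. The sites of the 9 members are shown as 30 bases each, 5′ to 3′ on the gene's strand, with the E-box in capitals, because they are the members whose windows hold the hexamer.
Nop2 (chr6:125131811-125131840, + strand): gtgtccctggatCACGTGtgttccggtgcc
Utp4 (chr8:106893643-106893672, + strand): tgcgcaagcgcgCACGTGgggccggggcgg
Ltv1 (chr10:13193092-13193121, - strand): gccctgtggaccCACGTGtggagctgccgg
Utp20 (chr10:88826765-88826794, - strand): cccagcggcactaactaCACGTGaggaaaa
Pes1 (chr11:3963965-3963994, + strand): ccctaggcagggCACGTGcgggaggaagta
Mybbp1a (chr11:72441347-72441376, + strand): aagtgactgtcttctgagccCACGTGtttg
Tsr1 (chr11:74898092-74898121, + strand): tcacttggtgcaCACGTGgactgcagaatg
Rrn3 (chr16:13780472-13780501, + strand): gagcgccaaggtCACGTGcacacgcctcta
Rrn3 (chr16:13780639-13780668, + strand): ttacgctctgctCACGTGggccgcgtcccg
Wdr43 (chr17:71616220-71616249, + strand): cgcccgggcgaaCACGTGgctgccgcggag

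Of the snoRNP and nucleolar genes in the table, 4 are shown as examples whose windows held no CACGTG. The 250 bases before each start are shown in lower case, 5′ to 3′, so that the contrast in base composition can be seen, since the G and C share was 69.6% for Ncl, 65.2% for Nop56, 41.2% for Nop58 and 52.0% for Dkc1.
Ncl (chr1:86359456-86359705, - strand): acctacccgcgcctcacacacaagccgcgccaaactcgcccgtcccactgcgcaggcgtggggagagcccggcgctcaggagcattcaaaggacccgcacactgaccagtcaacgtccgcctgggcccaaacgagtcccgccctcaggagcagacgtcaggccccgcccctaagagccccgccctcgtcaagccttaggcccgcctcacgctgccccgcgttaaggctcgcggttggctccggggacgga
Nop56 (chr2:130274162-130274411, + strand): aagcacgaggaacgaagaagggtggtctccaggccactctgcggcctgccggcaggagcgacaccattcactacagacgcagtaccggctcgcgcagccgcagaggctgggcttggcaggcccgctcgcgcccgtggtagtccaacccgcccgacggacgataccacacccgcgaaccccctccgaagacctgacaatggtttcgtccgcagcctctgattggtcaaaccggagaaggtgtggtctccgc
Nop58 (chr1:59684756-59685005, + strand): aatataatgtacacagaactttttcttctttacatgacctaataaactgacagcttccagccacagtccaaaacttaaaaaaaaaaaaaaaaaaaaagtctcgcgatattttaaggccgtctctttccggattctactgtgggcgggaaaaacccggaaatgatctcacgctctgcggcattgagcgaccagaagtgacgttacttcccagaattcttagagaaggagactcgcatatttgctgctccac
Dkc1 (chrX:75095604-75095853, + strand): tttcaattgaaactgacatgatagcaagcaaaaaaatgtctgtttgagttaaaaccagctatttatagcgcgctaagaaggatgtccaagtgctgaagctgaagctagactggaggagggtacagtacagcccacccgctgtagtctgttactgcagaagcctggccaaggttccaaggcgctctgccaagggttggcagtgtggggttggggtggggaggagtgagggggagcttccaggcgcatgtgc

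The libraries were first compared with their labels. Total normalized counts lay between 16134786 and 18944173 per library, and libraries of a group correlated at 0.950 to 0.978. Cd8a was abundant in every library (15088 to 41213), whereas Cd4 lay between 7980.0 and 22731 at the early stage and between 62.8 and 461 in mature cells. The sort markers were less even across lines. At the early stage OT-1 and TG6 did not overlap in Cd4 (7980.0 to 8114 and 21209 to 22731), Cd8a (16123 to 20020.5 and 36421 to 41213), Cxcr4 (1425 to 2898 and 4598 to 5527) or Ccr7 (648 to 863 and 112 to 199). Cxcr4 transcripts reached 4031 in F5 mature and 3316 in OT-1 mature libraries, sorted as CXCR4-, above every OT-1 early library. Summed levels lay between 108 and 319 for 5 B cell markers, between 125 and 742 for 7 myeloid markers, at most 91.0 for 7 thymic epithelial markers and between 33.9 and 1280.5 for 6 erythroid markers. For 5 NK and gamma delta T cell markers the sums lay between 1690.7 and 9999.8, mostly Trdc. Krt14 and Ncr1, which mark epithelium and NK cells, were at 0 in every library, whereas the epithelial markers Epcam (10.2 to 47.7) and Psmb11 (8.88 to 42.3) were detected. TG6 mature replicate 3 stood apart from the other TG6 mature libraries, since all 39 members other than Myc were higher in it than in both others (median log2 difference 0.40), as were all 20 genes of a cell division list (median 2.02). F5 late replicate 2 held more cell division transcripts than the other F5 late libraries (20 of 20 genes, median 4.02), but its ribosome biogenesis members did not move with them (5 of 39 above both others, median −0.05). In bulk libraries, fewer cells with a transcript and less of it per cell cannot be told apart.

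The members together made up 0.286% of the total normalized count in TG6 early replicate 2 and 0.663% in TG6 mature replicate 3. In 33 of 40 members (82.5%) the highest group mean was that of OT-1 mature cells, which held the highest mean for 18.6% of all genes tested. The lowest mean was that of TG6 early cells in 29 members (72.5%), compared with 14.2% of all genes. At the early stage the means ran OT-1 over F5 over TG6 in 33 members, an order shared by 24.8% of all genes. At the late and mature stages the means ran OT-1 over TG6 over F5 in 27 and 32 members, as in 17.9% and 24.8% of all genes. Ubtf was highest in F5 late cells, Wdr12 was highest in TG6 early cells, and Myc, Polr1b, Rrn3, Rrp9 and Nob1 were highest in TG6 mature cells. For Rrn3 and Rrp9 the TG6 mature libraries overlapped those of OT-1 mature. Their highest TG6 mature values were those of replicate 3, which stood apart (1253 and 863).

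**Figure D1:**
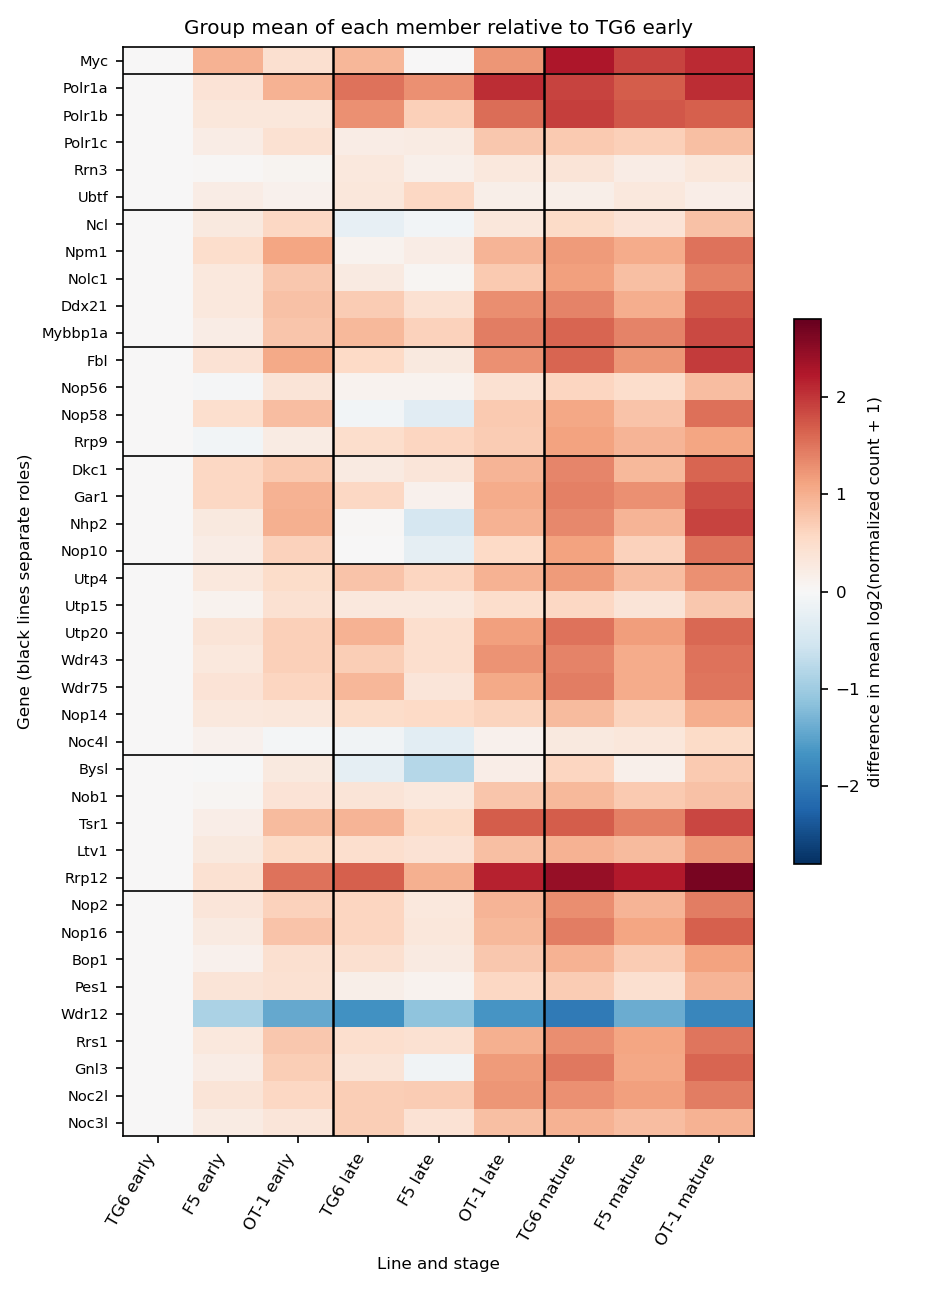
Group means of the 40 members (rows, in the order of their roles) in the 9 groups (columns), coloured by the difference from TG6 early in mean log2(normalized count + 1). Most members go up from early to mature and from TG6 to OT-1, and Wdr12 is highest in TG6 early cells.

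The transcription factor itself is described first. Myc (chr15:61985391-61990374, + strand) was at 282, 318 and 144 normalized counts in TG6, at 398, 529 and 465 in F5 and at 226, 367 and 400.4 in OT-1 at the early stage. Late libraries held 492 and 404 in TG6, 221, 263 and 225 in F5, and 469.8, 419 and 844 in OT-1. Mature libraries held 1299.9, 1126 and 969 in TG6, 561, 1172 and 999 in F5, and 797, 675 and 1828 in OT-1. Thus every mature library of TG6 and F5 lay above every late library of its line, the F5 late libraries lay below all other late libraries, and OT-1 mature libraries spread more widely than those of TG6. Myc rose from late to mature in F5 by 1.88 ± 0.35 on the log2 scale (SE, limma, adjusted p = 0.00048) and in TG6 by 1.33 ± 0.39 (adjusted p = 0.018). The TG6 call was lost without either TG6 late library (adjusted p up to 0.14). In OT-1 the difference was 0.85 ± 0.35 (adjusted p = 0.082), and it passed the threshold with a replicate block for mice (adjusted p = 0.0063).

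From early to late, Myc fell by 0.96 on the log2 scale in F5 (SE 0.35, limma adjusted p = 0.046), a call that was lost when any of the 6 libraries was left out (adjusted p 0.057 to 0.14). In TG6 and OT-1 the early to late differences were 0.92 ± 0.39 and 0.77 ± 0.35 and were not called, with adjusted p of 0.094 and 0.11 by limma. With the replicate block the OT-1 difference was called (adjusted p = 0.011) and that of TG6 was 0.69 (adjusted p = 0.053). Between lines, Myc was called only in OT-1 over F5 at the late stage (1.22 ± 0.35, limma adjusted p = 0.014). That call was lost without OT-1 late replicate 3, the highest of its group (adjusted p = 0.091). Between OT-1 and TG6 the Myc differences were 0.45 ± 0.35 at the early, 0.30 ± 0.39 at the late and −0.18 ± 0.35 at the mature stage, with adjusted p of 0.36, 0.66 and 0.79 by limma.

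**Figure D2:**
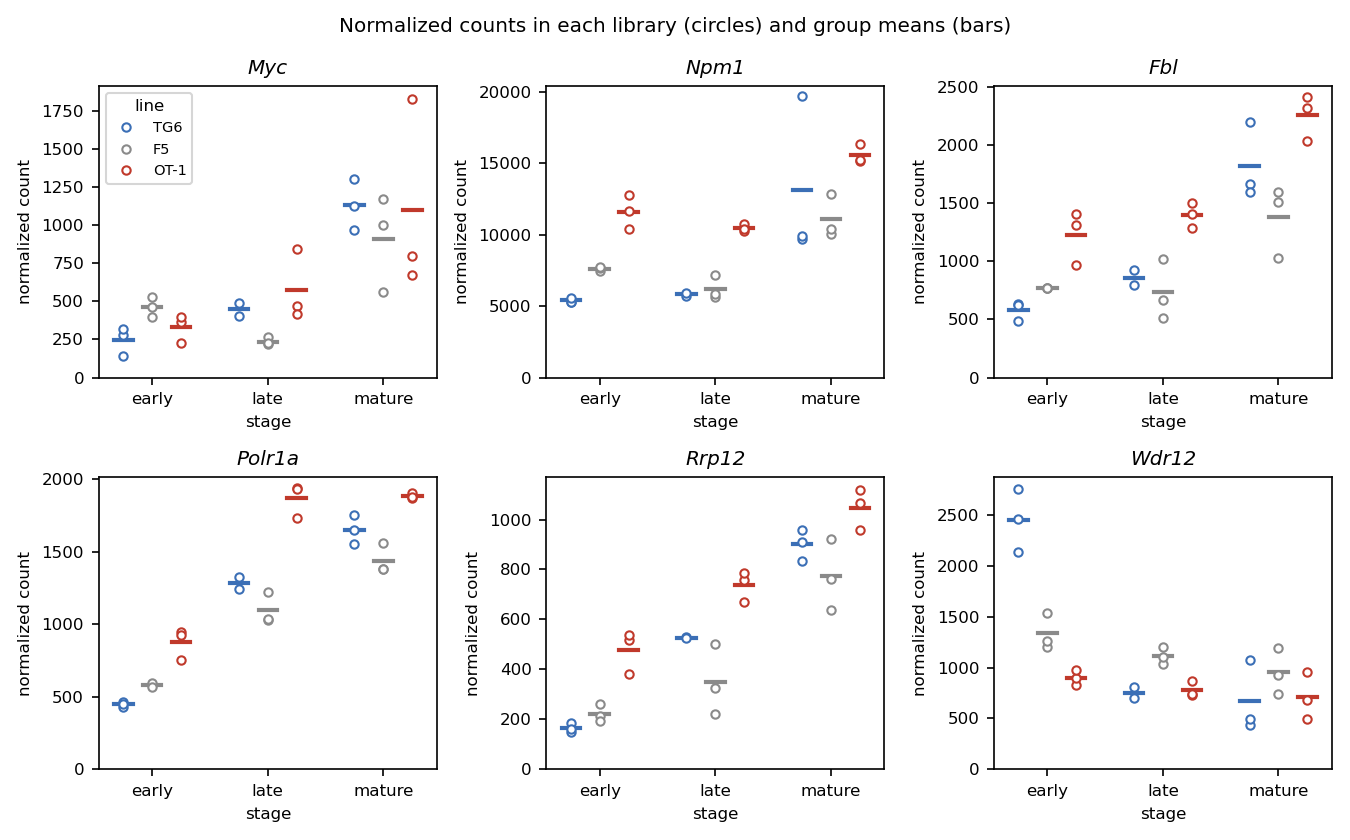
Normalized counts (vertical axes, from 0) of 6 members in each library at the 3 stages, with circles for libraries, bars for group means and colours for lines. Npm1, Fbl, Polr1a and Rrp12 separate OT-1 from TG6 at the early stage, Myc does not, and Wdr12 is highest in TG6 early cells.

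The comparison of OT-1 with TG6 asks how the members differ between thymocytes of high and low self-reactivity at the same stage. At the early stage 30 of 40 members were higher in OT-1 and 1 was lower, whereas 27.8% of all genes tested were called in either direction, 15.4% higher and 12.4% lower. The median log2 difference of the members was 0.60, beside −0.0022 for all genes. The sort markers named above differed between the same libraries, and their part in the members' differences was not tested. Markers of other cells also moved in this comparison. Of 7 myeloid and dendritic cell markers 4 were higher and 1 lower in OT-1, with summed levels of 367 to 464 in TG6 early and 364 to 528 in OT-1 early libraries. Of 5 NK and gamma delta T cell markers 3 were tested and all 3 were higher, with sums of 1733 to 2049.6 and of 6679 to 7803, mostly Trdc, and with Ncr1 at 0. Trdc lay at 1699 to 2029 in TG6, 8769 to 9991 in F5 and 6541 to 7406 in OT-1 early libraries. F5 and OT-1 carry a Rag deletion and TG6 has none in the labels. Trdc level and Rag genotype therefore cannot be told apart at any stage. The part of these markers in the members' differences was not tested. At the late stage 15 members were higher and 0 lower (background 15.5%, with 9.34% higher and 6.21% lower, median 0.42). The NK and gamma delta sums differed here too, at 1855 and 3198 in TG6 late and 9086 to 9331 in OT-1 late libraries, with all 3 tested markers higher in OT-1, and their part was not tested. In mature cells 0 members were called by limma (background 9.74%, with 4.67% higher and 5.08% lower, median 0.18), 3 had an unadjusted p under 0.05, all of them higher, and 35 of 40 differences were above 0. The share of all genes with an unadjusted p under 0.05 is not given here. Without TG6 mature replicate 3, 11 of 40 members were higher in OT-1 mature cells (median 0.32). This share lay near the 27.2% of all genes called in either direction in that fit. The late count was 8 with scaling to the library total, and it rested on few libraries, at 2 and 3 without TG6 late replicates 1 and 2 and at 7 and 6 without OT-1 late replicates 1 and 2, while its median stayed between 0.42 and 0.46.

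OT-1 was also compared with F5. At the early stage 10 members were higher in OT-1 and 0 lower (background 12.7%, with 7.81% higher and 4.88% lower, median 0.31), a count that was 5 with scaling to the library total and dropped to between 2 and 4 without OT-1 early replicate 1 or 2 or F5 early replicate 2 or 3. Backgrounds in this paragraph are those of the fit of all libraries, and shares of all genes in the alternative fits are not given here. These early libraries also differed in markers. Tcrg-C1 lay at 102 to 275 in OT-1 and 6.79 to 34.8 in F5 and Tcrg-C4 at 36.1 to 187 and 1.95 to 16.4, both called higher, while Trdc was not called. Cd4 (7980.0 to 8114 and 12506 to 14604), Cd8a (16123 to 20020.5 and 31839 to 34599) and Ccr7 (648 to 863 and 139.8 to 269.9) did not overlap between OT-1 and F5. Of the myeloid markers, Csf1r (5.63 to 42.8 and 0 to 5.55), Itgax (13.8 to 52.2 and 0.97 to 2.90) and Cd68 (75.7 to 97.3 and 40.6 to 66.8) lay higher in OT-1. Itgam lay lower (49.0 to 108 and 171 to 226), and the others overlapped. The part of these markers was not tested. At the late stage 30 were higher and 1 lower (background 24%, with 13.6% higher and 10.4% lower, median 0.64), and 5 of the 7 myeloid markers were also higher in OT-1 late cells. Tcrg-C1 lay at 172 to 347 in OT-1 late and 4.02 to 9.19 in F5 late libraries and Tcrg-C4 at 114 to 258 and at 0 to 2.04, and 2 of the 3 NK and gamma delta markers tested were called higher. The part of these markers was not tested. In mature cells 20 members were higher and 0 lower (background 23.3%, with 13.3% higher and 10.1% lower, median 0.44). In these mature libraries Tcrg-C1 lay at 163 to 404 in OT-1 and 21.2 to 43.1 in F5, and the mean log2 level of a cell division list at 0.42 to 0.64 and −1.39 to 0.25. Of the myeloid markers, Lyz2 (16.7 to 38.1 and 5.02 to 11.3), Csf1r (4.89 to 17.3 and 0 to 1.80) and Cd68 (72.6 to 92.4 and 51.4 to 58.5) did not overlap, and the others did. These parts were not tested. The mature count was 12 with scaling to the library total, 9 without F5 mature replicate 3, 12 without OT-1 mature replicate 1 or 2 and 13 without F5 mature replicate 1 or OT-1 mature replicate 3. F5 over TG6 gave 3 higher and 1 lower at the early stage (background 6.46%, with 3.12% higher and 3.35% lower, median 0.28), 0 higher and 3 lower at the late stage (background 4.97%, with 1.75% and 3.23%, median −0.21) and 0 higher and 2 lower in mature cells (background 6.64%, with 2.14% and 4.5%, median −0.25). At an unadjusted p under 0.05, 15 members differed at the early stage (14 higher in F5), 8 at the late stage (1 higher) and 12 in mature cells (1 higher). All F5 libraries lay above all TG6 libraries in 22 members and below them in 1 at the early stage, in 2 and 14 at the late stage, and in mature cells below them in 7. For neither the unadjusted nor the non-overlapping counts is the share of all genes tested given here. Such counts are therefore not read as particular to the members. These counts of 4, 3 and 2 members rested on single libraries. The early count fell to 0 without F5 early replicate 1 or TG6 early replicate 3, to 1 without F5 early replicate 2 or TG6 early replicate 2 and to 2 without TG6 early replicate 1. The late count was 5 without F5 late replicate 1 and 0 without TG6 late replicate 1. The mature count was 0, 4 and 1 without F5 mature replicates 1, 2 and 3, and without TG6 mature replicate 3 the only call was 1 member higher in F5. Markers differed between F5 and TG6 as well. Trdc lay at 8769 to 9991 in F5 and 1699 to 2029 in TG6 early libraries. It lay at 6447 to 8188 and 1814 to 3138 in late, and at 6759.7 to 7239.6 and 1544 to 3143 in mature libraries. Early Cd4 lay at 12506 to 14604 and 21209 to 22731. Late myeloid sums were 125 to 164 and 252 to 348, and they overlapped at the other stages. The part of these markers was not tested. The 3 comparisons at a stage share libraries, so their counts do not stand independently of each other.

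**Figure D3:**
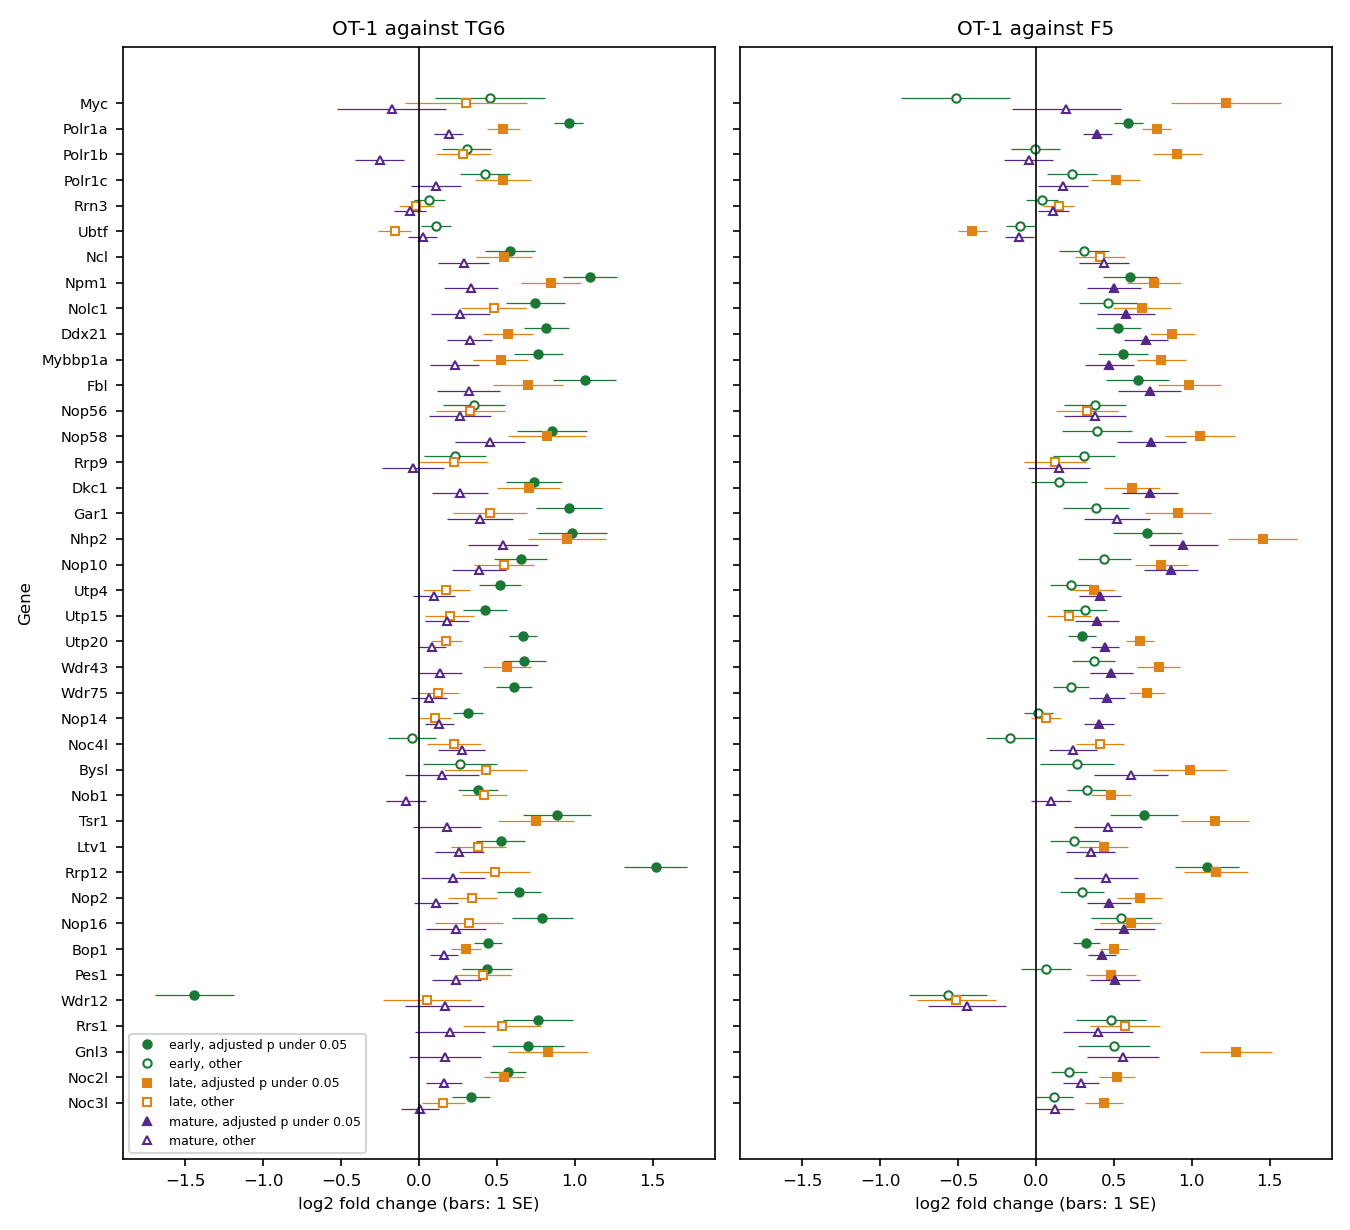
Log2 fold changes (horizontal axes, bars 1 SE) of the 40 members in OT-1 against TG6 (left) and OT-1 against F5 (right), with shapes and colours for stages and filled symbols for an adjusted p under 0.05. Filled symbols number 31, 15 and 0 in the left panel and 10, 31 and 20 in the right panel at the early, late and mature stages.

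RNA polymerase I transcribes the rRNA precursor, and its subunits differed in how closely they followed the lines. Polr1a, the largest subunit (chr6:71909053-71984935, + strand), was at 460.2, 430.4 and 448 in TG6 early, at 578, 592 and 564 in F5 early and at 943, 927 and 754 in OT-1 early libraries. Late Polr1a values were 1321 and 1239.5 in TG6, 1221, 1026 and 1034 in F5, and 1936, 1934 and 1732 in OT-1. Mature Polr1a values were 1552, 1651 and 1753 in TG6, 1556, 1381 and 1378 in F5, and 1904, 1872 and 1879.5 in OT-1. The lines were fully apart at the early stage in the order OT-1, F5 and TG6, and OT-1 stayed above the others at the later stages. Polr1a was higher in OT-1 than in TG6 by 0.96 ± 0.09 at the early stage (limma adjusted p = 9.4e-08) and by 0.54 ± 0.10 at the late stage (adjusted p = 0.00089), and the mature difference of 0.19 ± 0.09 was not called (adjusted p = 0.20). It was higher in OT-1 than in F5 at all 3 stages (0.59, 0.77 and 0.39).

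Polr1b is the other large subunit of the enzyme. Early Polr1b values were 311, 317 and 229 in TG6, 372, 367 and 318 in F5, and 347, 396 and 312 in OT-1, and OT-1 overlapped both other lines. Late Polr1b values were 724 and 653 in TG6, 559, 376 and 423 in F5, and 879, 817 and 817 in OT-1. Mature Polr1b values were 1013, 1058 and 1190.3 in TG6, 1189, 904 and 774 in F5, and 918, 878 and 935 in OT-1. F5 late libraries were the lowest of the late stage, and all OT-1 mature libraries lay below all TG6 mature libraries. Polr1b rose from early to late by 1.28 ± 0.18 in TG6 and by 1.26 ± 0.16 in OT-1 (limma adjusted p = 8.8e-06 and 6.4e-06), and by 1.07 ± 0.16 from late to mature in F5 (adjusted p = 4.1e-05). At the late stage it was higher in OT-1 than in F5 (0.91 ± 0.16) and lower in F5 than in TG6 (−0.62 ± 0.18), by limma at adjusted p = 0.00019 and 0.041.

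Polr1c, a subunit shared with RNA polymerase III, was called higher in OT-1 only at the late stage, over TG6 (0.54) and over F5 (0.51). Rrn3, the initiation factor that brings the polymerase to the promoter, was called in 0 of the 17 comparisons by limma, although with the replicate block its early to late rise was called in TG6 and OT-1. Ubtf, which binds rDNA chromatin, followed a different course. Early Ubtf values were 4174, 4400.4 and 4302 in TG6, 5224, 5041 and 4657 in F5, and 4522, 4545 and 4839 in OT-1. Late Ubtf values were 4969.5 and 5777 in TG6, 6541, 6654 and 5980.3 in F5, and 4576, 4339.6 and 5599.9 in OT-1. Mature Ubtf values were 4633, 4670.1 and 5147 in TG6, 5202, 5643 and 4980.1 in F5, and 4491, 4763 and 5471 in OT-1. All F5 late libraries lay above every other library of the series. Ubtf was lower in OT-1 than in F5 at the late stage (−0.41 ± 0.09, limma adjusted p = 0.0029), where the other 30 called members were higher in OT-1.

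The nucleolar chaperones and scaffold proteins bind rRNA and pre-ribosomal particles and are among the most abundant nucleolar proteins. All 5 were called higher in OT-1 over TG6 at the early stage and 4 of 5 at the late stage, where Nolc1 (0.48) missed the threshold (limma adjusted p = 0.13). Npm1 (nucleophosmin, chr11:33152287-33163206, - strand) was at 5320.3, 5300.3 and 5576 in TG6 early, 7441, 7654 and 7729 in F5 early, and 11672, 12744 and 10425 in OT-1 early libraries. Late Npm1 values were 5739.8 and 5899 in TG6, 7202, 5642 and 5835 in F5, and 10279, 10738 and 10370.3 in OT-1. Mature Npm1 values were 9668, 9931 and 19681 in TG6, 10042, 12826 and 10374 in F5, and 15182, 15207 and 16366 in OT-1. OT-1 libraries lay above all F5 and TG6 libraries at the early and late stages, and in mature cells only TG6 replicate 3 exceeded them. Npm1 was higher in OT-1 than in TG6 by 1.10 ± 0.17 at the early and 0.85 ± 0.19 at the late stage (limma adjusted p = 5.9e-05 and 0.0041). The mature difference was 0.33 ± 0.17 (limma adjusted p = 0.23) with all libraries and 0.67 ± 0.10 (adjusted p = 8.1e-05) without TG6 mature replicate 3. The mouse genome holds processed copies of Npm1, and the effect of shared reads on its level was not tested.

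Ncl (nucleolin, chr1:86344719-86359400, - strand) is an RNA-binding scaffold of the nucleolus. Early Ncl values were 10419, 10317 and 10916 in TG6, 13179, 12776 and 12428 in F5, and 16252, 17596 and 13864 in OT-1, again fully apart. Late Ncl values were 8735 and 9366 in TG6, 11329, 9869.8 and 8762 in F5, and 13102, 14076 and 12424 in OT-1. Mature Ncl values were 12736, 12262 and 23164 in TG6, 13786, 15663 and 12242 in F5, and 17970.4, 19476 and 18758 in OT-1. Unlike most members, Ncl was lower in the mean at the late than at the early stage in each line (−0.22, −0.36 and −0.26 in TG6, F5 and OT-1, none called without the block, and F5 called with it). It was higher in OT-1 than in TG6 by 0.59 ± 0.16 at the early stage (limma adjusted p = 0.0096) and by 0.54 ± 0.18 at the late stage (adjusted p = 0.045). Nolc1, a chaperone of snoRNPs, was higher in OT-1 at the early stage by 0.75 over TG6, and Ddx21, a helicase of rRNA transcription and processing, at the early and late stages (0.82 and 0.57). Mybbp1a, a nucleolar Myb-binding protein, was higher by 0.77 and 0.52 at these stages and rose from early to late in all 3 lines (0.92, 0.43 and 0.68 in TG6, F5 and OT-1).

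Box C/D snoRNPs add methyl groups to rRNA, and fibrillarin (Fbl) is their methyltransferase. Fbl (chr7:28169710-28179269, + strand) was at 487, 634 and 628 in TG6 early, at 769.7, 769.8 and 771 in F5 early and at 1310.0, 1409 and 964 in OT-1 early libraries. Late Fbl values were 798 and 923 in TG6, 1018, 666 and 517 in F5, and 1288, 1504 and 1405 in OT-1. Mature Fbl values were 1667, 1592 and 2199 in TG6, 1512, 1599 and 1029 in F5, and 2322, 2411 and 2031 in OT-1. The lines were apart at the early stage, and OT-1 lay above both others at the late stage. Fbl was higher in OT-1 than in TG6 by 1.06 ± 0.20 and 0.70 ± 0.23 at the early and late stages (limma adjusted p = 0.00047 and 0.039). It was higher in OT-1 than in F5 at all 3 stages (0.65, 0.98 and 0.73).

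Nop58 and Nop56 are core proteins of the same particle. Nop58 was higher in OT-1 than in TG6 by 0.85 at the early and 0.82 at the late stage, and it fell by 0.78 on the log2 scale from early to late in F5 (SE 0.22, limma adjusted p = 0.012), a fall that was not called without F5 late replicate 3 (adjusted p = 0.099). Its partner Nop56 (chr2:130274430-130279313, + strand) was at 2422, 2733 and 2782 in TG6 early, at 2603, 2709 and 2482 in F5 early and at 3281, 4199.8 and 2782 in OT-1 early libraries. Late Nop56 values were 2887 and 2784 in TG6, 3737, 2762 and 2232 in F5, and 3450.3, 4272 and 3077 in OT-1. Mature Nop56 values were 3486, 3427 and 5359 in TG6, 4460.3, 4179 and 2720.4 in F5, and 5029, 4769.7 and 4628 in OT-1. These libraries overlapped between F5 and TG6 at each stage, and no Nop56 difference was called in the 17 comparisons (largest 0.50 ± 0.22, TG6 mature against late, limma adjusted p = 0.12), though with the replicate block its late to mature rise was called in F5 and OT-1. Rrp9, which joins the U3 particle, was called in no comparison between lines. It rose from early to late in F5 (0.67), a call lost without F5 late replicate 1 or F5 early replicate 3, and from late to mature in TG6 (0.65), a call lost in 4 of 5 leave-one-out fits. With the replicate block Rrp9 was also called higher from early to late in TG6 and OT-1 and from late to mature in F5 and OT-1.

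Box H/ACA snoRNPs convert uridine to pseudouridine in rRNA, and dyskerin (Dkc1) is their catalytic subunit. Dkc1 (chrX:75095854-75109777, + strand) was at 588, 761 and 811 in TG6 early, at 1087, 1073 and 1063 in F5 early and at 1156, 1213 and 1199 in OT-1 early libraries. Late Dkc1 values were 884 and 809 in TG6, 944, 940.2 and 825 in F5, and 1461, 1177 and 1528 in OT-1. Mature Dkc1 values were 1631, 1447 and 2663 in TG6, 1263, 1691 and 1112 in F5, and 2493, 1921 and 2274 in OT-1. Early F5 libraries thus lay between those of TG6 and OT-1 without overlap, whereas late F5 libraries overlapped those of TG6. Dkc1 was higher in OT-1 than in TG6 by 0.74 ± 0.18 at the early and 0.71 ± 0.20 at the late stage (limma adjusted p = 0.0043 and 0.020), and F5 over TG6 at the early stage gave 0.59 ± 0.18 (adjusted p = 0.054).

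In all 4 members of this particle OT-1 exceeded TG6 at the early stage and F5 at the late stage. Nhp2, an RNA-binding core subunit (chr11:51619735-51623714, + strand), showed the largest called difference between OT-1 and TG6 at the late stage. Early Nhp2 values were 246, 276 and 298 in TG6, 314, 327 and 347 in F5, and 488, 634 and 509.8 in OT-1. Late Nhp2 values were 270.3 and 286 in TG6, 221, 215 and 158 in F5, and 589, 514 and 514 in OT-1. Mature Nhp2 values were 561, 538 and 1130.1 in TG6, 454, 746 and 432 in F5, and 1093, 968 and 992 in OT-1. The late OT-1 libraries did not overlap with the others, and the F5 late libraries were the lowest. At the late stage Nhp2 was higher in OT-1 by 0.95 ± 0.25 over TG6 (limma adjusted p = 0.012, and up to 0.096 without either TG6 late library) and by 1.45 ± 0.22 over F5 (adjusted p = 5.0e-05). The core subunit Gar1 was higher in OT-1 early cells than in those of TG6 by 0.96 and the small subunit Nop10 by 0.65.

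The small subunit processome is the large particle that forms on the 5′ end of the rRNA precursor. At the early stage 6 of its 7 members were called higher in OT-1 over TG6, with Noc4l the exception (−0.05). Late in selection only Wdr43 was called (0.57), and Utp20 and Utp4 were at 0.18 each without a call, while in OT-1 over F5 Utp20 (0.67), Wdr43 (0.79), Wdr75 (0.71) and Utp4 (0.37) were called. Utp20 and Wdr75 also differed between F5 and TG6, higher in F5 at the early stage (0.37 and 0.39) and lower in F5 at the late (−0.49 and −0.59) and mature stages (−0.36 and −0.39), by limma at adjusted p of 0.0030 to 0.050. None of these 6 calls held in every leave-one-out fit. Both late calls were lost without TG6 late replicate 1 (adjusted p = 0.097 and 0.16) and both mature calls without TG6 mature replicate 3 (adjusted p = 0.054 and 0.13). Utp15 and Nop14, further components of the particle, were higher in OT-1 early cells by 0.42 and 0.32.

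The factors of small subunit maturation and export act later. Rrp12, an export factor (chr19:41862851-41896173, - strand), showed the largest difference of any member between OT-1 and TG6 at the early stage. Early Rrp12 values were 184, 150.1 and 159.7 in TG6, 259, 212 and 194 in F5, and 517, 536 and 379.6 in OT-1. Late Rrp12 values were 528 and 524 in TG6, 500.4, 323 and 222 in F5, and 759.7, 784 and 671 in OT-1. Mature Rrp12 values were 912, 832 and 957 in TG6, 923, 764 and 639 in F5, and 1064, 1120.1 and 959 in OT-1. The lines were apart at the early stage, and OT-1 stayed highest in the mean at each stage. Rrp12 was higher in OT-1 than in TG6 by 1.52 ± 0.20 at the early stage (limma adjusted p = 9.0e-06), but the late and mature differences of 0.49 and 0.22 were not called (adjusted p = 0.16 and 0.54). Tsr1, a GTPase-like assembly factor, was higher in OT-1 than in TG6 by 0.89 and 0.75 at the early and late stages. Nob1, the endonuclease that makes the 3′ end of the 18S rRNA, and Ltv1, an export adaptor, were higher at the early stage (0.38 and 0.53). Bysl, needed for 40S assembly, was called between lines only in OT-1 over F5 at the late stage (0.99).

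The large subunit factors gave 8 members higher and 1 lower in OT-1 than in TG6 at the early stage. The PeBoW complex joins Pes1, Bop1 and Wdr12, and its subunits went apart. Pes1 and Bop1 were higher in OT-1 at the early stage (0.43 and 0.44), while Wdr12 (chr1:60069785-60098645, - strand) was lower. Early Wdr12 values were 2134, 2467 and 2757 in TG6, 1205, 1542 and 1264 in F5, and 828, 897 and 973 in OT-1. Late Wdr12 values were 699 and 807 in TG6, 1033, 1104 and 1205 in F5, and 730.4, 744 and 871 in OT-1. Mature Wdr12 values were 437, 494 and 1074 in TG6, 744, 1188 and 931 in F5, and 685, 498 and 956 in OT-1. Early TG6 libraries lay above all others of the series, and the early order was the reverse of that of most members. Wdr12 was lower in OT-1 than in TG6 at the early stage by −1.44 ± 0.25 (limma adjusted p = 0.00020) and fell by 1.70 on the log2 scale from early to late in TG6 (SE 0.28, adjusted p = 8.4e-05). F5 over TG6 at the early stage gave −0.88 ± 0.25 (limma adjusted p = 0.040), a call lost whenever a library was left out. The gene Carf lies on the opposite strand and shares 399 bases with Wdr12. Early Carf values were 618, 564 and 560.0 in TG6, 298, 374 and 504 in F5, and 309, 200.5 and 241 in OT-1, looked up after those of Wdr12 were seen. As for Wdr12, all TG6 early libraries lay above all OT-1 early libraries. At the late stage the genes parted between TG6 and F5, with Carf at 482 and 375 in TG6 and 288, 322 and 299.7 in F5, while the Wdr12 values of F5 lay above those of TG6 (not called). In mature cells Carf lay at 182 to 234 in TG6, above 124 to 175 in OT-1, whereas the Wdr12 libraries of these lines overlapped. Whether counting used strand is not given in the sources used here, so reads of the shared bases cannot be told apart, and the part of Carf in the Wdr12 result was not tested. In all, 15 of the 40 members overlap a gene on the opposite strand.

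The other large subunit factors followed the majority. Nop16 (0.79), Rrs1 (0.77), Gnl3 (0.70), the methyltransferase Nop2 (0.64), Noc2l (0.57) and Noc3l (0.33) were higher in early cells of OT-1 than of TG6. Of these, Gnl3, the nucleolar GTPase nucleostemin (0.83), Noc2l (0.55) and the PeBoW member Bop1 (0.30) were also called at the late stage.

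Whether the OT-1 and TG6 difference changed with stage was tested as an interaction. Between the early and late stages 1 member was called (Wdr12, −1.49 ± 0.38, limma adjusted p = 0.039, background 2.04%, with 1.09% positive and 0.947% negative), a call lost in 10 of 11 leave-one-out fits. With the replicate block 4 were called, 3 of them with a larger OT-1 excess at the early stage (Polr1a, Utp20 and Rrp12). Between the early and mature stages 4 members were called (background 4.2%, with 2.91% positive and 1.28% negative). The OT-1 excess was larger at the early stage for Rrp12 by 1.30 ± 0.29, for Polr1a by 0.77 ± 0.13 and for Utp20 by 0.58 ± 0.12, and the Wdr12 difference was −1.61 ± 0.36 (limma adjusted p = 0.0093, 0.00086, 0.0069 and 0.0091). All 4 were also called when any library was left out, and with the replicate block 12 members were called, 11 of them with the larger excess at the early stage. The backgrounds above are those without the block, and the share of all genes called with it is not given here. For the other members a change of the difference with stage was not called.

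The maturation steps were then compared within each line. From early to late, 17 members rose and 1 fell in TG6 (background 25.4%, with 12.1% higher and 13.3% lower, median 0.47), 6 rose and 4 fell in F5 (background 26.7%, with 12.7% higher and 14% lower, median 0.11), and 15 rose and 0 fell in OT-1 (background 26.7%, with 12.7% higher and 14% lower, median 0.30). The median over all genes lay between 0 and 0.04. The F5 counts lay near the shares of all genes in both directions. With the replicate block for mice the counts were 27 and 1 in TG6 and 8 and 9 in F5, so in F5 the balance of direction turned. The share of all genes called with the block is not given here. With scaling to the library total the F5 counts were 6 and 6. The balance also turned without F5 late replicate 1 (2 higher and 6 lower), and without F5 late replicate 3 the count was 6 higher and 0 lower. Without F5 early replicates 2 and 3 in turn the F5 count was 6 and 4, and the OT-1 count was 9 without OT-1 early replicate 3. Polr1a, Mybbp1a, Rrp12 and Noc2l were called higher in all 3 lines, and the share of all genes called so is not given here. Only for Polr1a did the call hold in every leave-one-out fit of each line. The F5 calls of the other 3 were lost without F5 late replicate 1 or F5 early replicate 2 or 3 (adjusted p up to 0.28), and the OT-1 call of Rrp12 without OT-1 early replicate 3 or OT-1 late replicate 1 or 2 (up to 0.13). Polr1a rose by 1.52 ± 0.10 in TG6, 0.91 ± 0.09 in F5 and 1.10 ± 0.09 in OT-1, with limma adjusted p of 7.6e-10, 3.9e-07 and 6.4e-08. Rrp12 rose most in TG6 (1.67 ± 0.23, adjusted p = 8.3e-06) and by 0.58 and 0.64 in F5 and OT-1. Of the processome, 5 of 7 members rose in TG6 and 5 of 7 in OT-1, whereas 0 of the 8 snoRNP members were called higher in either line. With the replicate block Fbl, Rrp9 and Gar1 were called higher in TG6 and Rrp9 in OT-1 (limma adjusted p = 0.011, 0.0046, 0.0045 and 0.0031). In F5 the called falls were those of Myc, Nop58 (−0.78), Nhp2 (−0.75) and Bysl (−0.80).

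From late to mature, 32 members rose and 0 fell in TG6 (background 22.3%, with 14.5% higher and 7.79% lower, median 0.67), 30 rose and 1 fell in F5 (background 20.5%, with 12.2% higher and 8.31% lower, median 0.60), and 17 rose and 0 fell in OT-1 (background 24.4%, with 14% higher and 10.4% lower, median 0.42). These steps share the late libraries with the step before. Fitted on the 2 groups compared alone, the counts were 4 in TG6, 8 in F5 and 26 in OT-1, with the same medians, and the TG6 count was 20 and 16 without TG6 late replicates 1 and 2. Without TG6 mature replicate 3, which stood apart, 23 members rose and Wdr12 fell. The OT-1 count was 29 with the replicate block and 11 without OT-1 late replicate 1. The backgrounds above are those of the fit of all groups without the block. Shares of all genes called in these alternative fits are not given here. Myeloid markers moved with this step, with summed levels of 252 to 348 late and 387 to 742 mature in TG6, 125 to 164 and 149.6 to 422 in F5, and 238 to 278 and 364 to 473 in OT-1. Of the 7 markers 1, 2 and 2 rose in TG6, F5 and OT-1 and 0, 0 and 1 fell. Gamma delta markers moved in TG6 and F5 as well. Tcrg-C1 lay at 21.6 and 33.3 in TG6 late and 69.7 to 358 in TG6 mature libraries, and at 4.02 to 9.19 and 21.2 to 43.1 in F5, and rose in both lines. Tcrg-C4 lay at 18.7 and 26.4 late and 68.7 to 213 mature in TG6 (limma adjusted p = 0.0501, not called), and it rose in F5, where it lay at 0 to 2.04 late and 5.05 to 27.1 mature. In OT-1 neither was called and Trdc fell (−0.72). The part of these markers in the members' rise was not tested. In all 3 lines 15 members rose, among them Ncl, Npm1, Fbl, Nop58, all 4 H/ACA members, Nop2, Nop16 and Bop1. The share of all genes called higher in all 3 lines is not given here. Not every call held in each leave-one-out fit. In OT-1 those of Ncl, Npm1, Ddx21, Fbl, Nop58, Dkc1 and Nop2 did not, and in F5 those of Ncl and Dkc1. The TG6 call of Gar1 was lost without TG6 mature replicate 3 (limma adjusted p = 0.092). Among the 15 members, the largest rise in OT-1 was that of Nop10. Early Nop10 values were 302, 300.2 and 381 in TG6, 375, 371 and 388 in F5, and 473, 558 and 511 in OT-1. Late Nop10 values were 338 and 320.5 in TG6, 292, 284 and 249 in F5, and 518, 427 and 499.8 in OT-1. Mature Nop10 values were 614, 619 and 949 in TG6, 380.1, 667 and 524 in F5, and 988, 888 and 918 in OT-1. Every mature Nop10 library lay above every late library of its line, and the rises were 1.11 ± 0.19 in TG6, 0.89 ± 0.17 in F5 and 0.95 ± 0.17 in OT-1 (limma adjusted p = 0.00024, 0.00064 and 0.00038). Ubtf fell in F5 by 0.28 on the log2 scale (SE 0.09, adjusted p = 0.041), a call lost in 4 of 6 leave-one-out fits.

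**Figure D4:**
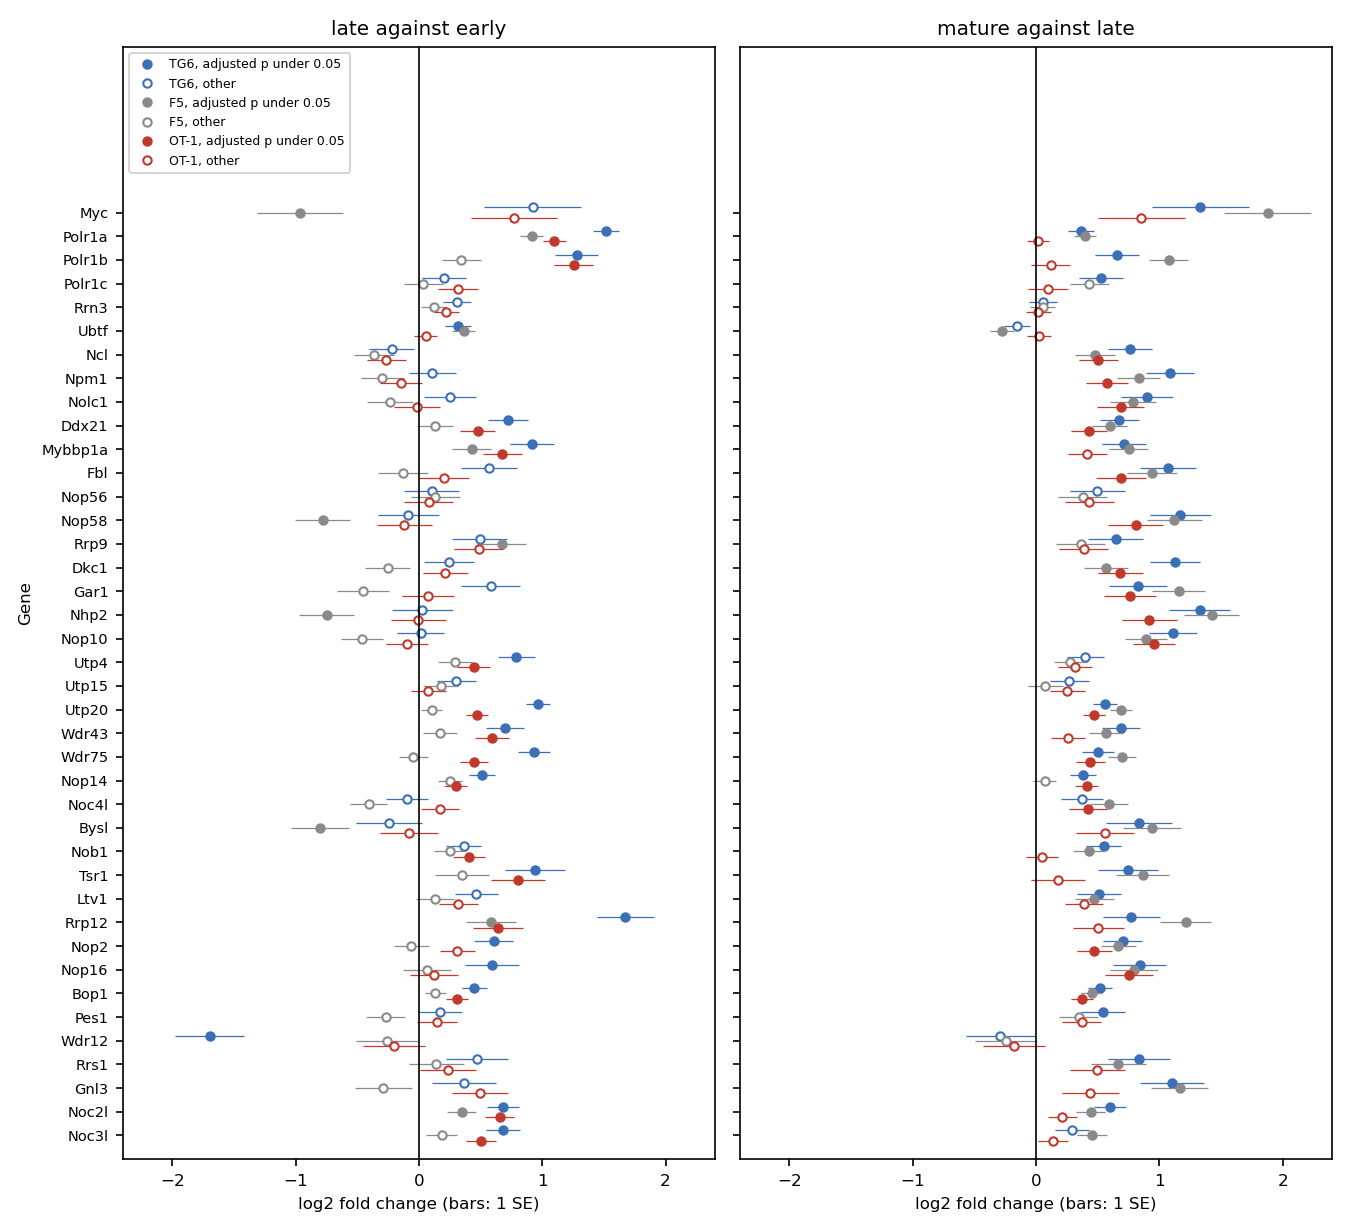
Log2 fold changes (horizontal axes, bars 1 SE) of the 40 members from early to late (left) and from late to mature (right), with colours for lines and filled symbols for an adjusted p under 0.05. Filled symbols number 18, 10 and 15 on the left and 32, 31 and 17 on the right in TG6, F5 and OT-1.

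The members did not follow the cell division genes from early to late. Relative to TG6 early, the mean log2 level of the 39 members other than Myc ran from −0.04 to 0.07 in TG6 early, 0.13 to 0.31 in F5 early and 0.46 to 0.66 in OT-1 early libraries. Late libraries lay at 0.43 and 0.44 in TG6, from 0.01 to 0.51 in F5 and from 0.83 to 0.88 in OT-1, and mature libraries from 0.90 to 1.4, from 0.66 to 1.00 and from 1.25 to 1.28. OT-1 libraries lay above all F5 and TG6 libraries of the same stage, except for TG6 mature replicate 3. All 20 cell division genes fell from early to late in each line (medians −5.79, −5.96 and −4.05 in TG6, F5 and OT-1) and all 20 rose from late to mature (4.99, 4.64 and 4.0). At the early stage 0 of the 20 were called between OT-1 and TG6, with a median of 0.65, though their mean levels did not overlap (0.41 to 0.96 in OT-1 and −0.04 to 0.07 in TG6). At the late stage 12 were higher in OT-1 (median 2.56) beside the 15 members. In mature cells 1 was higher (median 1.32), and the levels were 0.42 to 0.64 in OT-1 and −1.53, −1.41 and 0.44 in TG6. Without TG6 mature replicate 3 the remaining TG6 libraries lay below all of OT-1. In that fit 11 members were called, a share near that of all genes. The part of cell division in the members' differences was not tested.

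**Figure D5:**
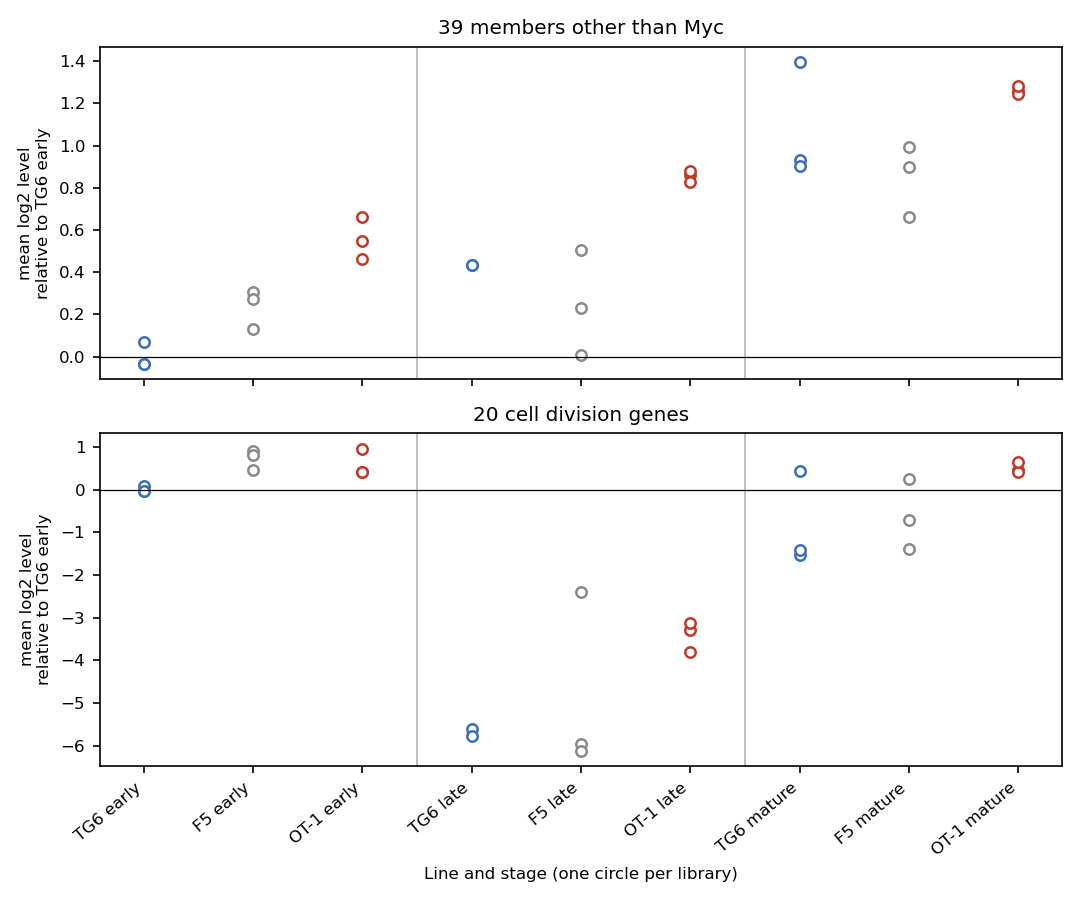
Mean log2 level of the 39 members other than Myc (top) and of 20 cell division genes (bottom) in each library, relative to the TG6 early mean, by line and stage. From early to late the members' level rises in TG6 and OT-1 and overlaps in F5 (0.13 to 0.31 and 0.01 to 0.51) while the cell division genes fall by several log2 units, and TG6 mature replicate 3 is high in both panels.

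Other genes around Myc were read from lists of the same pathway. Of 23 Myc targets outside the nucleolus, 17 were higher and 0 lower in OT-1 than in TG6 at the early stage, 9 and 0 at the late and 1 and 0 at the mature stage (medians 0.77, 0.52 and 0.35). These are 73.9%, 39.1% and 4.35% of the list, beside backgrounds of 27.8%, 15.5% and 9.74%. The largest early differences were those of Ccnd2, a G1 cyclin (3.27), Nme2, a nucleotide kinase (1.5), Ldha, lactate dehydrogenase (1.27) and Cad, of pyrimidine synthesis (1.23). From late to mature 16, 17 and 18 of the 23 rose in TG6, F5 and OT-1 and 0, 0 and 1 fell, which is 69.6%, 73.9% and 82.6% beside 22.3%, 20.5% and 24.4%. Of 109 other ribosome biogenesis factors, 35 were higher and 5 lower in OT-1 than in TG6 at the early stage (36.7%, background 27.8%, median 0.27). Their late share of 13.8% (12 and 3) and mature share of 1.83% (1 and 1) lay under the backgrounds of 15.5% and 9.74%. Their largest early differences were those of Pno1 (0.97), Rrp1b (0.90), Rrp15 (0.83) and the rRNA acetyltransferase Nat10 (0.78). From late to mature 42, 26 and 20 of the 109 rose and 0, 0 and 1 fell in TG6, F5 and OT-1, which is 38.5%, 23.9% and 19.3% beside backgrounds of 22.3%, 20.5% and 24.4%.

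The list of the Myc family and the Max network held 12 genes, all tested. From early to late, 2 were called higher and 4 lower in TG6 (background 25.4%, median −0.046), 4 and 2 in F5 (background 26.7%, median 0.10) and 1 and 3 in OT-1 (background 26.7%, median 0.0084). From late to mature, 2 were called higher and 1 lower in TG6 (background 22.3%, median −0.070), 1 and 2 in F5 (background 20.5%, median −0.21) and 2 and 3 in OT-1 (background 24.4%, median −0.40). The summed level of the list was lower in mature than in late libraries of each line, at 15237 to 17815 and 18672 to 19537 in TG6, 14826 to 20216 and 20907 to 22779 in F5, and 14336 to 16097 and 19922 to 22816 in OT-1. Between OT-1 and F5, 1 was higher and 3 were lower at the late stage (background 24%) and 2 were lower in mature cells (background 23.3%), and F5 over TG6 gave 2 higher at the late stage (background 4.97%) and 2 in mature cells (background 6.64%). Neither comparison had a call by limma at the early stage, where 1 and 2 genes had an unadjusted p under 0.05 (share of all genes not given here). Between OT-1 and TG6 the only call was Mycl at the early stage (2.32 ± 0.67, limma adjusted p = 0.013), whose means there were only 5.16 and 0.203 normalized counts. Mycn, the paralog of Myc, fell from early to late in TG6, F5 and OT-1 (−2.32, −1.38 and −2.28). Mxd3, a Max partner that represses E-box genes, fell in all lines from early to late (−5.81, −6.73 and −4.37) and rose from late to mature (5.06, 5.42 and 4.51). Mxi1, another Max partner of this kind, fell from late to mature in all lines (−0.74, −0.86 and −0.61), and at the late stage it was lower in OT-1 than in F5 (−1.08 ± 0.22, limma adjusted p = 0.00094).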

How the data were processed

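RNA from 26 sorted thymocyte libraries was sequenced in bulk. Per the study's methods and the submitters' processing notes, reads were trimmed with Trimmomatic 0.32, aligned to mm10 with Bowtie2 2.3.2, estimated per gene with RSEM 1.2.31 and scaled with DESeq2. The deposited values are the authors' normalized signal per gene, that is RSEM estimates divided by DESeq2 size factors. They were not whole numbers, so no count test was run, and the read total of each library before scaling is not given in the sources used here. The study's methods state a depth of 20 M reads. Totals ranged from 16134786 to 18944173 (median 17159756). A level is a normalized count and is not divided by gene length.

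Groups came from the labels. Values were taken as log2(value + 1), which understates the change of low genes, and 16372 genes with at least 10 in at least 2 libraries were kept. The 9 group means were fitted together in limma 3.58.1 (R 4.3.3) with a mean-variance trend and 17 residual degrees of freedom. Each of the 17 comparisons was adjusted by Benjamini-Hochberg over all tested genes, two-sided, and a gene was called at an adjusted p under 0.05. A call of higher or lower refers to the group named first. P-values measure the spread between these libraries. The procedure was tested on simulated data.

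Replicate numbers are shared across the stages of a line, and the design has 3 mice per line sorted into the stages, so a number was taken as a mouse within a line and fitted as a block as an alternative. Same-numbered libraries of different stages had deviations correlating at 0.106 to 0.340 in F5 (9 of 9 pairs over 0.1), 0.0189 to 0.178 in OT-1 (5 of 9) and 0.0230 to 0.274 in TG6 (2 of 7). The titles of the TG6 late libraries are written differently from those of the other TG6 libraries, so whether their numbers mark the same mice is in doubt, and blocked values of TG6 rest on it. Other alternatives were pseudocounts of 0.1 and 5, no filter, scaling to the total, quantile normalization, only the groups compared, and each library left out.

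The 40 members and the other lists were chosen with earlier results of these data known. All members were reported by role. Values per library were given for Myc, Ncl, Npm1, Fbl, Nop56, Dkc1, Polr1b and the called members with the largest rise and fall in each comparison of OT-1 with TG6 and each step. From other lists, up to 4 examples were named by the size of their change, and some members of the Max network were added after their values were seen. Positions are from GENCODE vM21 (GRCm38), and sequences from RefSeq (GRCm38.p6).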

Additional observations from a re-analysis of the deposited data

Results flagged for a closer look

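The difference between OT-1 and TG6 changed between the early and mature stages in 4 of 40 members, by an interaction term in limma (background 4.2%). It changed in 12 with the replicate block, for which the share of all genes is not given here. The early difference minus the mature one was 1.30 ± 0.29 on the log2 scale for Rrp12 (adjusted p = 0.0093), 0.77 ± 0.13 for Polr1a (adjusted p = 0.00086), 0.58 ± 0.12 for Utp20 (adjusted p = 0.0069) and −1.61 ± 0.36 for Wdr12 (adjusted p = 0.0091). The early difference minus the late one was −1.49 ± 0.38 for Wdr12 (adjusted p = 0.039), a call lost in 10 of 11 leave-one-out fits and with no filter (adjusted p = 0.059). Carf, on the opposite strand, also lay higher in all TG6 than in all OT-1 early libraries, but in late libraries Carf lay higher in TG6 than in F5 and Wdr12 lower, and the part of Carf was not tested.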

How the results depend on the processing

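The alternatives were read for 257 values, namely each difference called for a member and Myc in every comparison. Over the alternatives 2730 of their values kept direction and side of the threshold, 568 lost and 4 gained a call, and 8 changed sign, all of Myc where it was not called. Uncalled differences of other members are not in these counts, and some changed sign or gained a call. For OT-1 against TG6, early against late, Myc was −0.077 with the replicate block and ran from −0.20 to 0.46 with each library left out. With each library left out it ran from −0.24 to 0.47 for OT-1 against F5 in mature cells, and for OT-1 against TG6 from −0.61 to 0.10 in mature and from −0.0057 to 0.50 in late cells.

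Counts of called members moved by over 1.5 times as follows. With no filter, F5 against TG6 gave 2 (early) and 1 (mature), OT-1 against TG6 late 8, F5 late against early 6 and the early against late interaction 0. With total scaling, OT-1 against F5 gave 5 (early) and 12 (mature), OT-1 against TG6 late 8 and F5 against TG6 mature 0. Quantile normalization gave 1 for F5 against TG6 mature, as did the replicate number as a block over all libraries. With only the groups compared, F5 against TG6 gave 9, 0 and 0 by stage, F5 late against early 5 (2 higher, 3 lower), mature against late 4, 8 and 26 in TG6, F5 and OT-1, and the interactions 3 (2 positive) and 2. With the replicate block within a line, late against early gave 28 in TG6 and 17 in F5 (8 higher, 9 lower), OT-1 mature against late 29, and the interactions 4 (3 positive) and 12. The block over all libraries pairs different mice between lines. Shares of all genes called under these settings are not given here, so these counts are not set against a background.

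With each library left out, counts for OT-1 against TG6 ran from 22 to 30, 2 to 11 and 0 to 11 by stage, for OT-1 against F5 from 2 to 10, 23 to 34 and 9 to 22, and for F5 against TG6 from 0 to 3, 0 to 5 and 0 to 4. Late against early ran from 15 to 18, 4 to 8 and 9 to 15, and mature against late from 16 to 33, 21 to 31 and 11 to 15, in TG6, F5 and OT-1. The interactions ran from 0 to 1 and 4 to 6. Direction turned in F5 late against early without F5 late replicate 1 (8, of which 6 lower), in the early against late interaction without OT-1 early replicate 3 (1, higher) and in F5 against TG6 mature without TG6 mature replicate 3 (1, higher). The cause was not tested. Total scaling moved the median of all genes by −0.11 and −0.13 in OT-1 against TG6 (early and late), −0.13 in OT-1 against F5 mature and −0.11 in TG6 mature against late, and members relative to it were at 0.60, 0.41, 0.42 and 0.67.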
